A study of Mus musculus with 36 samples.

Results

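The small nucleolar and Cajal body RNA genes are those whose single gene symbol on the array starts with Snor or Scarna, 55 of 19938 genes with 1 symbol. Of these, 54 encode small RNAs and 1, Snorc, is a protein-coding cartilage gene that shares only the letters of the prefix. The RNA genes comprise 31 of the C/D box class (Snord), 20 of the H/ACA box class (Snora) and 3 of the Cajal body class (Scarna). Snorc is kept out of every count below.

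C/D box RNAs base-pair with ribosomal RNA and direct the methylation of its riboses, and H/ACA box RNAs direct the conversion of uridine to pseudouridine. A few members of either class act in the cleavage of the ribosomal RNA precursor instead, and Cajal body RNAs guide the same modifications on spliceosomal RNAs. In mammals most of these RNAs are cut from introns of host genes, which are often genes of ribosomal proteins or translation factors, or noncoding genes of the Snhg type whose spliced product makes no protein.

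Total RNA of whole mouse lung was hybridised to 36 Affymetrix Mouse Gene 1.0 ST arrays. The A/J strain, known for its susceptibility to lung tumours, was compared with C3H, a more resistant strain. Mice were either untreated, with lungs at weeks 0, 3, 6, 9 and 12, or had received weekly injections of NNK, a tobacco nitrosamine that damages DNA, at 100 mg/kg for 4 weeks, with lungs at weeks 3, 6, 9 and 12 after exposure and before mature tumours. This gave 10 untreated and 8 NNK-treated arrays for each strain, as 18 groups of strain, treatment and week with 2 arrays each. Age, sex, substrain and vehicle were not given in the labels. Nothing in the labels ties the paired arrays to different mice, and p-values therefore reflect only how far these arrays scattered, which could be technical scatter alone. RNA was extracted with Trizol and passed over columns, and nothing in the labels speaks of how well short RNAs were kept.

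Levels are quantile-normalized log2(intensity + 16), and differences are on that log2 scale, which understates the changes of dim genes. The brightness of one probe set cannot be set against that of another. Tests came from 1 limma fit over 14953 genes whose mean level reached the 25th percentile (7.54), with Benjamini-Hochberg adjustment over all of them and a threshold of 0.05. Of the 54 RNA genes 43 reached it, 23 of the C/D box, 17 of the H/ACA box and 3 of the Cajal body class. Because 5 of the 43 (Snord118, Snora33, Snord87, Snord85 and Snora62) were below that level on average in C3H and passed through A/J, counts over all 54 without the filter are given as well.

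The tissue matched its label, since the mean level of 10 lung markers lay between 12.20 and 12.45 in every array. Markers of other tissues moved with some groups. The cornified envelope gene Lor was high on 3 untreated A/J arrays (13.65 on array 2 of week 0, and 12.74 and 13.59 on the arrays of week 6) against at most 7.40 elsewhere. Krt1, a keratin of differentiated epidermis, was high on the week 6 arrays (14.37 and 14.77) and read 9.27 on array 2 of week 0, within its range on the other arrays (at most 9.72), while Krt5, a keratin of basal cells, read 10.22 on that week 0 array against at most 8.33 on the arrays low in Lor. The mean level of 6 cardiac muscle markers was 9.82 to 11.75 in untreated A/J (median 10.81) and 9.15 to 10.33 in untreated C3H (median 10.04). By the test 5 of 6 were higher in A/J and 0 lower, where 19.8% of all tested genes were higher and 36.3% lower. With NNK 4 of 6 were higher, where 23.5% of all tested genes were higher and 29.8% lower. Their part in the results below was not tested. Results without the 3 arrays high in Lor are given where calls were lost, but those fits also lose week 6 of untreated A/J and an array of week 0. In whole tissue, fewer cells of a type and less RNA per cell cannot be told apart.

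By position in the RefSeq gene table of GRCm38.p6, 53 of the 54 RNA genes lay inside another gene, of which strand was not checked. The host was a ribosomal protein gene for 21, a noncoding gene for 14 and another protein-coding gene for 18, and Snord118 lay in none. Promoters of the 6 hosts that carry 2 tested members, and of Rps12, which carries Snora33, are shown as RefSeq gives them on GRCm38.p6, because pairs from the same transcript start are compared below. Each line runs from 100 bases before to 20 bases from the annotated start on the gene's own strand, with capitals for CTTTT or CTTTC lying wholly within 20 bases of the start on that strand (overlapping matches are merged), letters of the pyrimidine run at the start of many ribosomal protein and snoRNA host genes.
Snhg3 (Snora73a, Snora73b), chr4:132353667-132353786, minus strand: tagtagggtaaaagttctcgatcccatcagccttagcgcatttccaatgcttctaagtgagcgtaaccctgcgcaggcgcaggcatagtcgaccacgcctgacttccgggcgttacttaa
Ncl (Snord82, Snora75), chr1:86359436-86359555, minus strand: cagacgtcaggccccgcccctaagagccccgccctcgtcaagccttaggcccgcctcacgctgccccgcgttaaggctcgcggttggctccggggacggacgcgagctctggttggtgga
Snhg12 (Snora44, Snora16a), chr4:132308578-132308697, plus strand: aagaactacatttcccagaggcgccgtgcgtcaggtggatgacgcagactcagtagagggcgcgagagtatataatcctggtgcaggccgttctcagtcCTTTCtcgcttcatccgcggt
2410006H16Rik (Snord49b, Snord49a), chr11:62602777-62602896, plus strand: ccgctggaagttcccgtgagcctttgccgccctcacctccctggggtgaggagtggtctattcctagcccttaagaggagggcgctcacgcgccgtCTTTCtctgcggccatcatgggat
Rack1 (Snord96a, Snord95), chr11:48800260-48800379, plus strand: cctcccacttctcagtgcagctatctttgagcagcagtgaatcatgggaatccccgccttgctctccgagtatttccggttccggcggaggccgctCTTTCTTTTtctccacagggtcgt
Rpl13a (Snord33, Snord35a), chr7:45128726-45128845, minus strand: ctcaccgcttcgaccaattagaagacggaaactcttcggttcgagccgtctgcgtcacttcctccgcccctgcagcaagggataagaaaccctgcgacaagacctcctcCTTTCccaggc
Rps12 (Snora33), chr10:23787190-23787309, minus strand: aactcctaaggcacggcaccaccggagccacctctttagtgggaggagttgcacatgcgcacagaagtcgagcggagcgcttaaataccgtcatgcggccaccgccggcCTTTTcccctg
At least 1 of these letter runs was present near the start of 10 of the 27 hosts of tested members with an entry (37% of them) and of 9.18% of 27025 genes. A match is a description of letters, not of a working site.

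In untreated lungs most of the tested small RNA genes were higher in A/J than in C3H. Of the 43 tested, 30 were higher and 1, Snora23, was lower, where 19.8% of all tested genes were called higher and 36.3% lower. The median difference of the 43 was 0.30, against -0.04 over all genes tested. Without the filter 31 of 54 were higher and 3 lower, against 19.3% and 30.8% of all genes. Of the 43, 38 reached the filter level in the mean of each strain, and of these 25 were higher and 1 lower, with a median of 0.26. By class the higher ones were 16 of 23 C/D box, 11 of 17 H/ACA box and 3 of 3 Cajal body genes. A difference of at least 1 in size was found for 8 members and for 0.749% of all tested genes, for 5 of the 38 members that reached the level in both strains, and without the filter for 8 of 54 members and 0.727% of all genes.

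**Figure D1:**
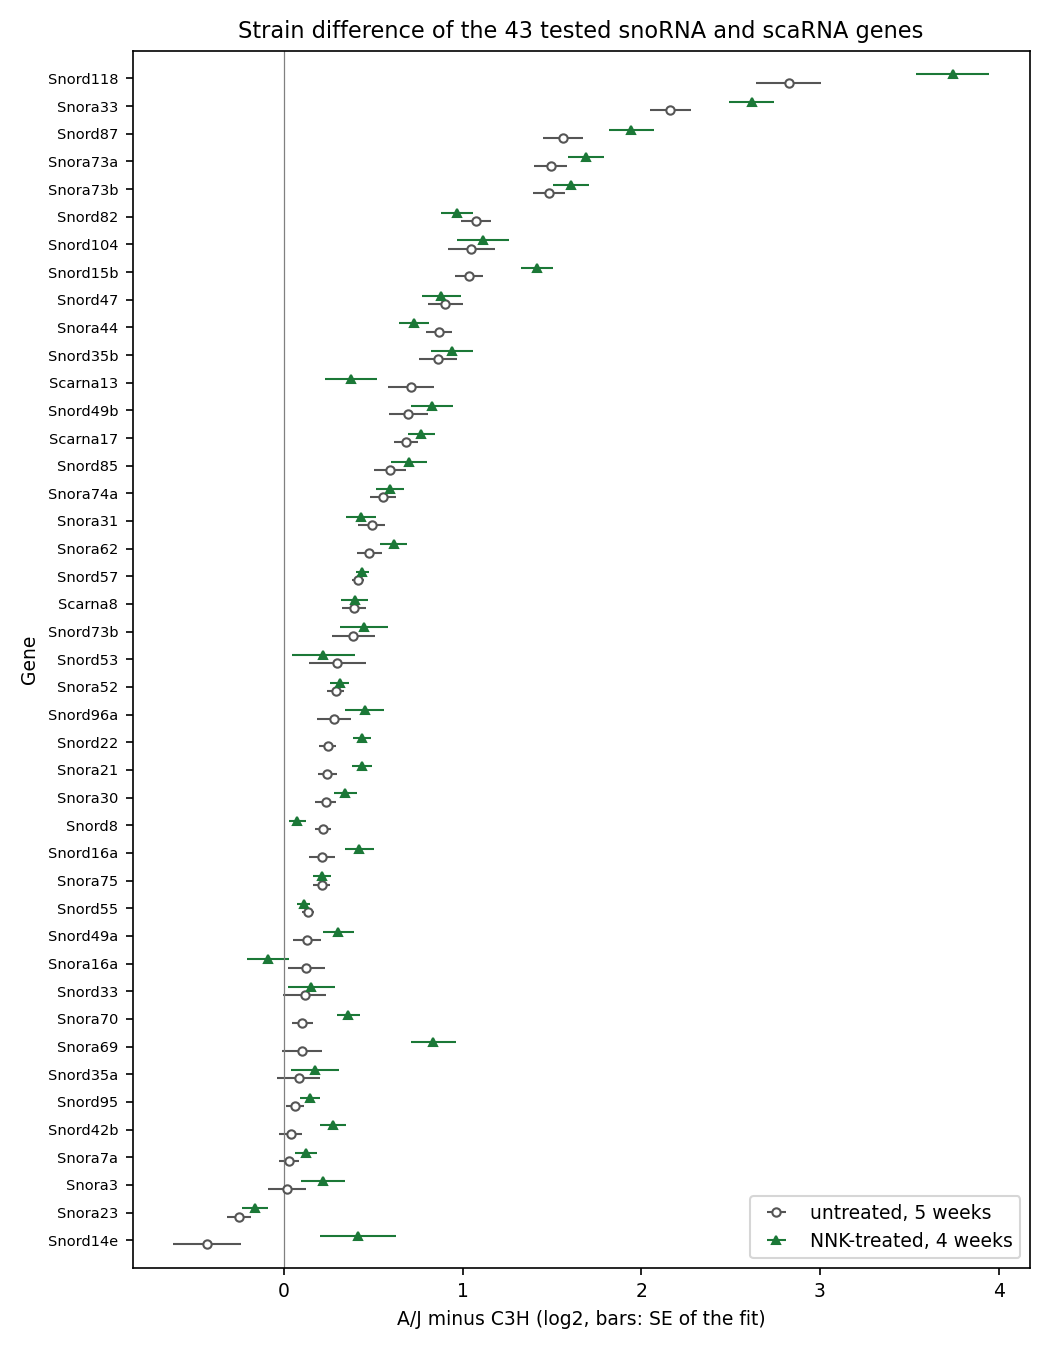
Difference between A/J and C3H (x axis, log2, bars are the standard error of the fit) for each of the 43 tested small RNA genes (y axis), as open circles for untreated lungs over 5 weeks and filled triangles for NNK-treated lungs over 4 weeks. Snord118 lies farthest to the right in both, at 2.83 and 3.74, and only Snora23, Snord14e and Snora16a lie below 0 in either.

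Snord118 encodes the U8 RNA, which is transcribed from its own promoter and is needed to process the RNA of the large ribosomal subunit rather than to guide a modification. Its level in untreated A/J ran from 6.91 over a median of 10.08 to 11.39, and in untreated C3H from 6.34 over 6.74 to 7.60. In NNK-treated lungs it ran from 9.57 to 11.44 (median 10.83) in A/J and from 6.19 to 7.59 (median 7.02) in C3H. The untreated strains overlapped through 1 A/J array of week 0, and the NNK-treated strains did not overlap. The difference was 2.83 ± 0.18 (SE) in untreated lungs (adjusted p = 1.26e-11) and 3.74 ± 0.20 in NNK-treated lungs (adjusted p = 1.1e-12). Since the C3H mean of 6.91 lay below the level of the filter, the C3H end of this difference rests on dim values.

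Snora73a and Snora73b encode close copies of the U17 RNA, an H/ACA box RNA that takes part in cleaving the ribosomal RNA precursor, and both lie in Snhg3. Snora73a ran from 10.21 to 13.01 (median 11.87) in untreated A/J and from 9.94 to 10.89 (median 10.34) in untreated C3H, and with NNK from 11.30 to 12.67 (median 12.16) against 9.92 to 10.66 (median 10.52). The A/J and C3H arrays overlapped only in the untreated lungs, where the week 0 arrays of A/J were low. The differences were 1.49 ± 0.09 for Snora73a and 1.48 ± 0.09 for Snora73b (adjusted p = 5.98e-12 and 4.5e-12), and 1.69 and 1.61 with NNK. As the transcripts are near copies, their probe sets may not measure them apart.

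Other members with large differences were guides from several kinds of host. Snora33, an H/ACA box RNA of the ribosomal protein gene Rps12, ran from 7.94 to 10.21 (median 9.83) in untreated A/J and from 6.79 to 7.97 (median 7.35) in untreated C3H, a difference of 2.16 ± 0.11 (adjusted p = 3.59e-13). The groups touched only at the lowest A/J array, one of week 0, and with NNK they lay apart, at 9.32 to 10.33 against 6.86 to 7.50. Snord87, a C/D box RNA of Snhg6, ran from 7.89 to 10.20 (median 8.99) against 7.11 to 7.97 (median 7.47), a difference of 1.56 ± 0.11, and 1.94 with NNK. Snord15b, in the ribosomal protein gene Rps3, ran from 8.71 to 10.25 (median 9.79) against 8.41 to 8.77 (median 8.64), a difference of 1.03 ± 0.08. The C3H values of Snord15b stayed within a narrow range, and the A/J values did not.

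The strains were apart in every array for Snord82, a C/D box RNA of the nucleolin gene Ncl. It ran from 11.94 to 12.49 (median 12.18) in untreated A/J, 11.96 to 12.33 (median 12.19) in A/J with NNK, 10.51 to 11.74 (median 11.13) in untreated C3H and 10.99 to 11.56 (median 11.16) in C3H with NNK. All 18 A/J arrays were above all 18 C3H arrays, which held for no other tested member and for 1.52% of all tested genes. Its differences were 1.08 ± 0.08 in untreated lungs and 0.97 ± 0.09 with NNK (adjusted p = 2.1e-10 and 9.45e-09). In untreated lungs alone, Snord104 and Snord57 were also without overlap, 3 members in all, against 2.55% of tested genes, and without the filter 4 of 54, against 2.02%. Snord57, from the Nop56 gene, whose protein is itself a core part of C/D box particles, differed by 0.41 ± 0.03 with values of 12.76 to 12.95 in A/J and 12.19 to 12.59 in C3H. Snord104 differed by 1.05 ± 0.13, from 12.29 to 13.34 against 11.30 to 12.10.

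Between these and the weakest differences lay Snord47 (0.90 ± 0.10), which is cut from the noncoding gene Gas5, Snora44 (0.87 ± 0.07), Snord35b (0.86 ± 0.10) and Snord49b (0.70 ± 0.11). The 3 Cajal body RNAs were higher in A/J as well, by 0.71 ± 0.13 for Scarna13, 0.68 ± 0.07 for Scarna17 and 0.39 ± 0.07 for Scarna8 (adjusted p = 6e-05, 1.39e-08 and 3.03e-05). Scarna13 ran from 9.06 to 10.69 (median 9.95) in untreated A/J and from 8.74 to 9.50 (median 9.29) in untreated C3H. It also contains the miRNA gene Mir3069, whose hairpin is shown from RefSeq, as the stretch of a member that is listed as a second small RNA, with both mature arms in capitals (chr12:105031077-105031141, GRCm38.p6, minus strand, 65 bases).
Mir3069: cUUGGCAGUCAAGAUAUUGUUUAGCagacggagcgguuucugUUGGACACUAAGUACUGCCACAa
The array reads out the longer RNA with its own probe set, and the miRNA arms were not measured apart from it here.

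A few members went the other way or did not pass. Snora23, an H/ACA box RNA of the nuclear import gene Ipo7, ran from 9.71 to 10.95 (median 10.49) in untreated A/J and from 10.50 to 10.98 (median 10.70) in untreated C3H, and was lower in A/J by 0.25 ± 0.07 (adjusted p = 0.00273). The strains overlapped widely. By week the difference was -0.19, -0.30, -0.02, -0.76 and 0.01 at weeks 0, 3, 6, 9 and 12, largest at week 9. Without array 2 of week 9 of untreated A/J, which read 9.71, the mean difference was -0.18. With NNK the difference was -0.16 ± 0.07 and did not pass (adjusted p = 0.0734). Snord14e, of the U14 family that helps to process and methylate the RNA of the small ribosomal subunit, differed by -0.43 ± 0.19 in untreated lungs and by 0.41 ± 0.21 with NNK and passed in neither (adjusted p = 0.0602 and 0.107). Among the brightest probe sets, Snora7a (0.03 ± 0.06) and Snora3 (0.02 ± 0.11) did not pass in untreated lungs, and Snora52 did at 0.29 ± 0.05. Snorc, the protein-coding gene, gave -0.05 ± 0.04 (adjusted p = 0.343), and -0.12 ± 0.05 with NNK (adjusted p = 0.0465).

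In NNK-treated lungs, arrays that the first comparison did not use, 34 of the 43 were higher in A/J and 0 lower, where 23.5% of all tested genes were called higher and 29.8% lower. At an unadjusted p under 0.05, 35 members passed, and all tested genes were not counted at that threshold. Without the filter 40 of 54 were higher and 1, the dim Snord58b, lower, against 18.3% and 25.6% of all genes. The median difference was 0.44, against -0.02 over all genes tested. Of the 38 members that reached the filter level in both strains, 29 were higher and 0 lower, with a median of 0.42. Of the members higher in untreated lungs, 29 were higher here too, which is 96.7% of the untreated calls and 85.3% of the NNK calls, and 41 of 43 had the same sign. Over all tested genes, 2284 were higher in both, 77.1% of the untreated and 65.1% of the NNK calls, and 80.1% had the same sign. Snord8 passed only in untreated lungs, and Snora69, Snora70, Snord42b, Snord49a and Snord95 only with NNK. A separation without any overlap was found for 16 members, against 7.1% of tested genes, for 11 of the 38 that reached the level in both strains, and without the filter for 17 of 54, against 5.56%.

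Members that share a host had close values in some pairs and unlike ones in others. The pair in Snhg3 differed between the strains by 1.49 and 1.48, as given above. In Ncl, Snord82 differed by 1.08 and its neighbour Snora75 by 0.21 ± 0.05. In Snhg12, Snora44 differed by 0.87 and Snora16a by 0.13 ± 0.10, which did not pass. In 2410006H16Rik, Snord49b differed by 0.70 and Snord49a by 0.13 ± 0.08, which did not pass. In Rack1, a gene for a ribosome-bound scaffold protein, Snord96a differed by 0.28 ± 0.10 and Snord95 by 0.06 ± 0.05, and in Rpl13a neither Snord33 (0.12 ± 0.12) nor Snord35a (0.08 ± 0.12) passed. The difference between the members of a pair was not tested, and 1 start region stands for both of each pair in the sequences above.

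**Figure D2:**
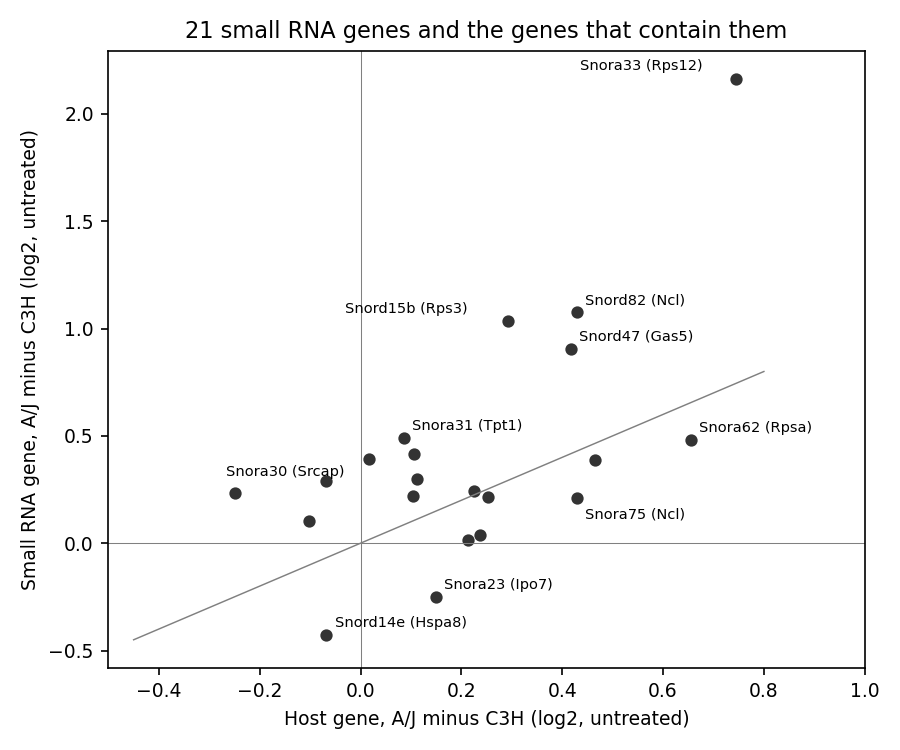
Difference between A/J and C3H in untreated lungs for 21 tested small RNA genes (y axis, log2) against that of the gene that contains each (x axis, log2), with the line of equal differences. Snora33 stands at 2.16 over 0.74 for Rps12, and Snora23 and Snord14e lie below 0.

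A tested host was available for 21 tested members, 20 host genes in all. Of these hosts 14 were higher in A/J and 2 lower, where 19.8% of all tested genes were higher and 36.3% lower. Their median difference was 0.18, against -0.04 over all genes, and the 21 members had a median of 0.29. The member's difference was the larger in size for 14 of the 21 and had the sign of its host for 17. Rps12 differed by 0.74, with Snora33 at 2.16, and Gas5 by 0.42, with Snord47 at 0.90. Rpsa, with Snora62 inside, had the larger value, at 0.66 for the host and 0.48 for Snora62. Srcap was lower in A/J by 0.25 (a difference of -0.25), while its Snora30 was higher by 0.23 ± 0.06. Ribosomal protein genes have many near-identical copies, so the values of those hosts are uncertain. By kind of host, 11 of 13 tested members in noncoding genes were higher (median 0.71), 9 of 13 in other protein-coding genes with 1 lower (median 0.28) and 9 of 16 in ribosomal protein genes (median 0.17).

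The proteins of the particles moved in both directions, beside 19.8% of all tested genes higher and 36.3% lower in untreated A/J and 23.5% and 29.8% with NNK. Of 4 C/D box core proteins 1, the methyltransferase fibrillarin (Fbl), was higher in untreated A/J, and with NNK Nop56, Nop58 and Snu13 were. Of 4 H/ACA core proteins, Gar1 was higher and the pseudouridine synthase Dkc1 (-0.17 ± 0.04) and Nop10 (-0.68 ± 0.04) were lower, with a median of -0.03, and with NNK Gar1 and Nhp2 were higher and Nop10 lower, with a median of 0.10. Of 15 tested assembly factors 3 were higher and 9 lower, with a median of -0.14. The lower ones included Coil, the coilin of Cajal bodies (-0.20 ± 0.05), and Wrap53, which brings Cajal body RNAs there (-0.14 ± 0.05), and neither passed with NNK. With NNK 4 of the 15 were higher and 5 lower, with a median of -0.01. Of 20 ribosome biogenesis factors 10 were higher and 4 lower, with a median of 0.09, and with NNK 12 were higher and 1 lower, with a median of 0.17. Of 9 tested small RNAs outside the Snor and Scarna names, 7 were higher in untreated A/J and 0 lower, with a median of 0.43, and with NNK 6 were higher, with a median of 0.51. The 7 included the vault RNA Vaultrc5 (1.46 ± 0.11) and the Y RNA Rny1 (0.92 ± 0.18). Also among them were Rnu3a (0.46 ± 0.11), the U3 RNA that is a C/D box RNA by structure, and Rmrp and Rpph1. The latter, the RNAs of RNase MRP and RNase P, differed by 0.44 ± 0.06 and 0.43 ± 0.05. Terc, the telomerase RNA, which has an H/ACA box, was called in neither comparison. It ran from 9.19 to 9.57 in untreated A/J and from 9.21 to 9.61 in untreated C3H.

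The small RNA genes varied more between arrays of one group than most genes. The SD between the 2 arrays of a group, pooled over the 18 groups, had a median of 0.19 over the 43 tested members and 0.10 over all tested genes, and 35 of the 43 were above the 75th percentile of all tested genes (0.12). The median size of the difference between the 2 arrays was larger for the members than for all tested genes in 18 of 18 groups. The spread was larger in A/J (median 0.22) than in C3H (0.15), in 34 of 43 members. Over all tested genes the medians were 0.11 and 0.08, with A/J larger in 11436 of 14953.

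**Figure D3:**
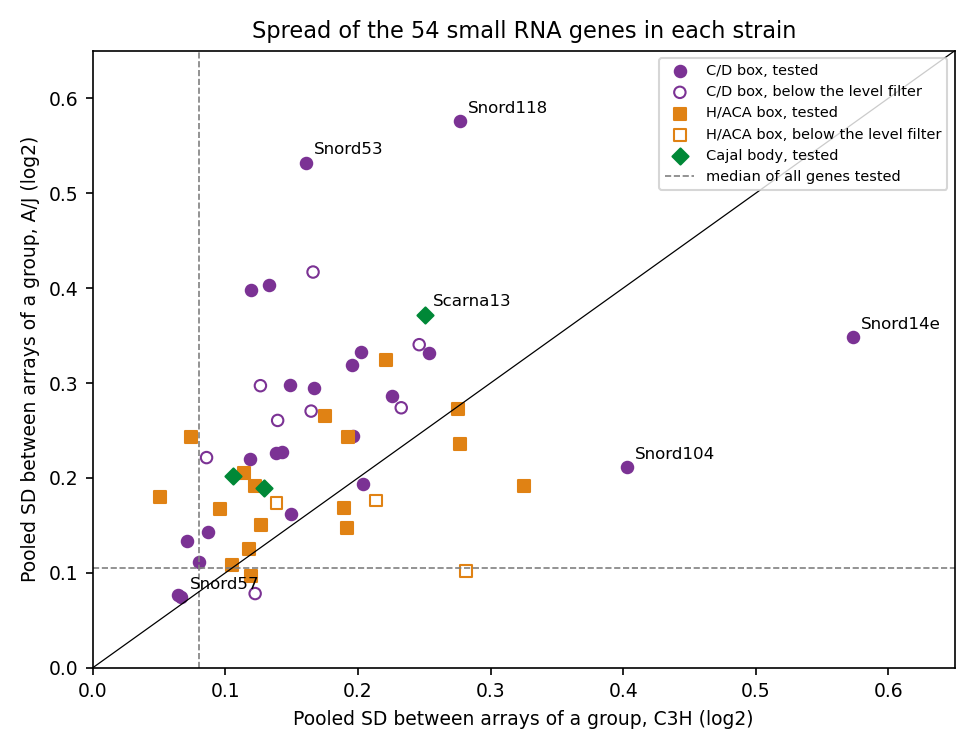
SD between arrays of a group, pooled over the 9 groups of a strain, in A/J (y axis, log2) and C3H (x axis, log2) for the 54 small RNA genes, by class, with open symbols for those below the level filter. Most lie above the line of equal spread and above the dashed medians of all tested genes, and Snord14e lies far to the right at 0.57 in C3H.

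The largest SD between arrays was that of Snord14e, at 0.47, above 99.6% of tested genes. Its untreated C3H arrays of week 3 read 9.50 and 11.05, and those of week 6 read 9.83 and 10.94, wide gaps beside the range of 9.21 to 11.26 over all 36. Snord118 followed at 0.45, with Snord53 at 0.39, Snord104 at 0.32 and the dim Snord37 at 0.32. Snord53, from the Wdr43 gene, ran from 9.44 to 11.31 (median 10.94) in NNK-treated A/J, against 10.25 to 11.10 in NNK-treated C3H. Snord57 and Snord55 were among the steadiest, at 0.07 each, below the SD of most tested genes.

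The values of the same 43 members, with the 5 that passed the filter through A/J, were also read as a median on each array. These are the data of the strain difference above and no separate evidence for it. As each member's deviation from its own mean over the 36 arrays, the median of the 43 was negative in all 18 C3H arrays (-0.34 to -0.10) and positive in 16 of 18 A/J arrays (0.05 to 0.57). The exceptions were both untreated A/J arrays of week 0, at -0.13 and -0.15. The same median over all tested genes ran from -0.08 to 0.02 on A/J arrays and from -0.01 to 0.03 on C3H arrays. Of the untreated A/J pairs, the arrays of week 6, both high in Lor and Krt1, stood apart most, with 35 of 43 members higher in array 2. Other small RNA genes, taken as 11 genes from a list, had medians of -0.23 to 0.35 in untreated A/J and -0.36 to -0.02 in untreated C3H.

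**Figure D4:**
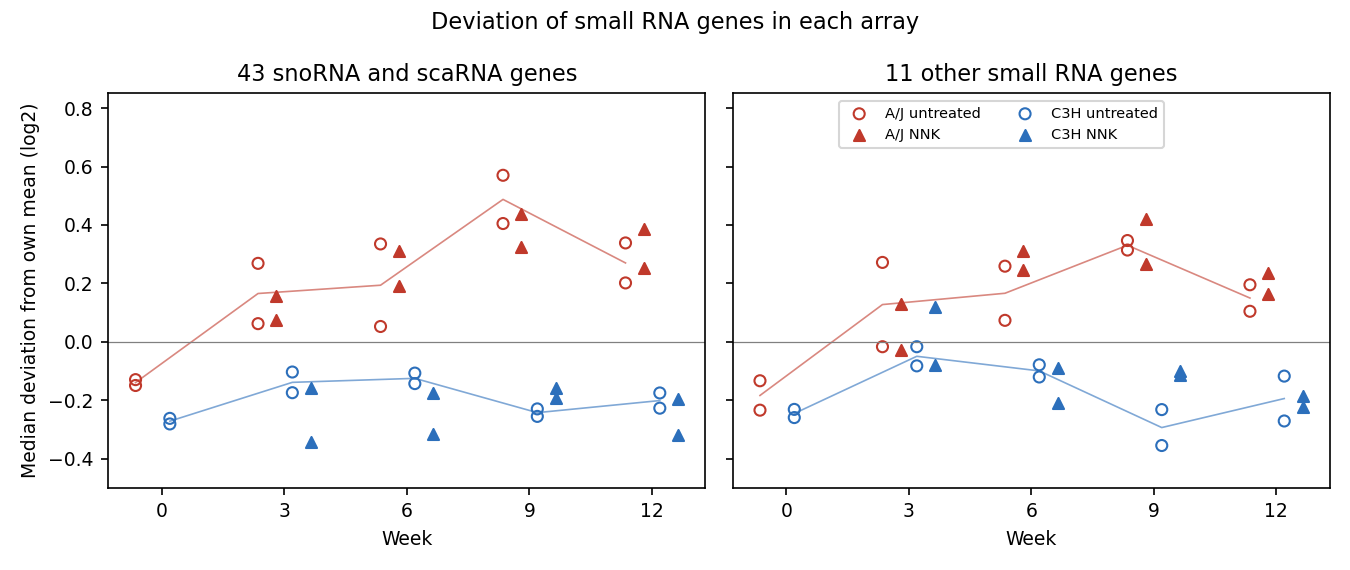
Median deviation from each gene's own mean (y axis, log2) in each of the 36 arrays by week (x axis), for the 43 tested small nucleolar and Cajal body RNA genes (left) and 11 other small RNA genes (right), with lines through the means of untreated arrays. In the left panel all C3H arrays lie below 0 and the A/J arrays of week 0 stand at -0.13 and -0.15.

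Few of the members were called for NNK, as were few of all tested genes. In A/J, 2 of 43 were higher with NNK and 1 lower, where 7.44% of all tested genes were called higher and 2.6% lower. Without the filter 1 of 54 was higher and 1 lower, against 4.89% and 1.89% of all genes. Snora69, an H/ACA box RNA of the ribosomal protein gene Rpl39, ran from 7.13 to 8.88 (median 7.76) in untreated A/J and from 8.12 to 8.89 (median 8.40) with NNK. Its groups overlapped in the week 9 arrays, where untreated A/J read 8.30 and 8.88. The mean rise over weeks 3 to 12 was 0.51 ± 0.12 (adjusted p = 0.0116). Untreated ranges and medians, here and for C3H below, include the week 0 arrays, which the NNK change does not use. Snora23 rose by 0.24 ± 0.07 (adjusted p = 0.0431), from 9.71 to 10.95 (median 10.49) untreated to 10.55 to 10.93 (median 10.67). Its change was 0.23, 0.04, 0.61 and 0.07 at weeks 3, 6, 9 and 12. Without array 2 of week 9 of untreated A/J, the array that also weighed on its strain difference, the rise was 0.15. Snord8, from the Chd8 gene, fell by 0.19 (a change of -0.19 ± 0.05, adjusted p = 0.0138), from 9.43 to 9.85 (median 9.64) to 9.39 to 9.62 (median 9.51). The 3 arrays high in Lor include both untreated A/J arrays of week 6, so without them the change is over weeks 3, 9 and 12. The values were then 0.49 for Snora69, 0.30 for Snora23 and -0.14 for Snord8, and these calls were lost. Whether the lost week or the skin genes lay behind this was not tested. Snora23 passed in 18 of 36 fits that each left out 1 array, with a rise of 0.15 to 0.32. Snora70 (0.18 ± 0.07) and Snord22 (0.13 ± 0.05) were next by p and did not pass.

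In C3H no member passed with NNK at the adjusted threshold, where 0.0803% of all tested genes did. At an unadjusted p under 0.05 in the limma fit there were 4 of the 43, and all tested genes were not counted at that threshold. Their values were -0.65 ± 0.21 for Snord14e, -0.15 ± 0.06 for Snord95, -0.08 ± 0.04 for Snord57 and 0.21 ± 0.08 for Snora44. Snord118, with the largest strain difference, changed by 0.47 ± 0.20 in A/J (adjusted p = 0.144) and 0.06 ± 0.20 in C3H (adjusted p = 0.984). The median change of the 43 members was -0.01 in A/J and -0.04 in C3H, near the 0.01 and -0.01 of all tested genes. The difference of the NNK change between the strains passed for Snora69 alone, at 0.71 ± 0.18 (adjusted p = 0.049), where 1.13% of tested genes were called. In C3H, Snora69 ran from 7.31 to 8.14 (median 7.83) untreated and from 7.29 to 8.12 (median 7.57) with NNK. That call was lost in 24 of 36 fits that each left out 1 array and without the 3 arrays high in Lor (0.68). It was also lost with no filter on dim genes, a pseudocount of 1, array weights and trended robust variances. Snord14e (0.98 ± 0.30, adjusted p = 0.0997) and Snord8 (-0.19 ± 0.07, adjusted p = 0.155) did not pass.

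**Figure D5:**
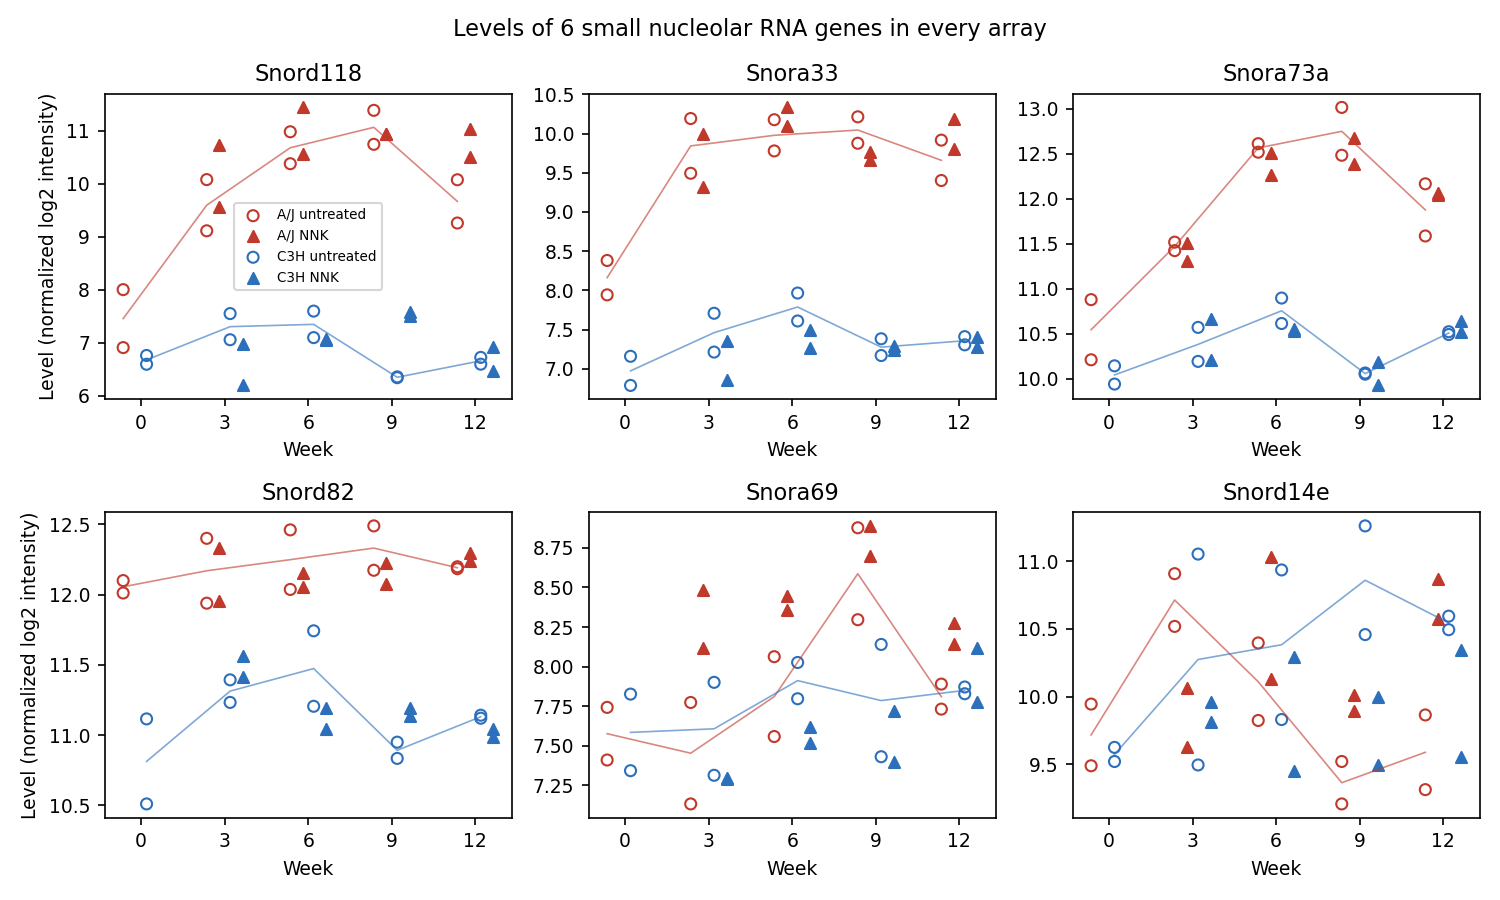
Level (y axis, normalized log2 intensity) of 6 small nucleolar RNA genes in every array by week (x axis), with open circles for untreated and filled triangles for NNK-treated lungs, red for A/J and blue for C3H, and lines through the means of untreated arrays. Snord118 and Snora33 rise in A/J after week 0, Snord82 separates the strains in every array, and Snord14e shows wide gaps between arrays of a group.

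Over the weeks, many members rose in untreated A/J lungs, largely between week 0 and the later weeks. By a linear trend over weeks 0 to 12, 20 of 43 rose and 0 fell, where 17.5% of all tested genes rose and 5.27% fell. The median change over 12 weeks was 0.41, against 0.07 over all tested genes. Without the filter 21 of 54 rose and 1, Snora20, fell, against 18.4% and 8.08% of all genes. By class, 13 of 17 H/ACA box, 6 of 23 C/D box and 1 of 3 Cajal body genes rose, and the difference between the classes was not tested.

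Snord118 read 6.91 and 8.003 at week 0 of untreated A/J, 9.11 and 10.08 at week 3, 10.38 and 10.98 at week 6, 10.74 and 11.39 at week 9 and 10.08 and 9.26 at week 12. Its highest week was thus the ninth, and both week 0 arrays lay under all later ones. The trend was 2.36 ± 0.36 over 12 weeks (adjusted p = 0.000182). Snora73a, of the Snhg3 pair, read 10.88 and 10.21 at week 0, 11.42 and 11.52 at week 3, 12.52 and 12.61 at week 6, 12.48 and 13.01 at week 9 and 12.16 and 11.58 at week 12, with a trend of 1.58 ± 0.18. Snora33 went from 7.94 and 8.38 at week 0 to 9.49 and 10.19 at week 3 and stayed between 9.40 and 10.21 afterwards, with a trend of 1.28 ± 0.22. Snora73b (1.46 ± 0.18), Snord87 (1.29 ± 0.22) and Snord15b (1.15 ± 0.16) completed the 6 members with a change of at least 1, a size that 0.508% of tested genes reached. Of the 6, Snord118, Snora33 and Snord87 were below the filter level on average in C3H and passed the filter through A/J. Smaller rises included Snora3 (0.69 ± 0.22), Snord49b (0.67 ± 0.21), Snora69 (0.64 ± 0.22) and Snora74a (0.63 ± 0.14), and Snord14e changed by -0.64 ± 0.38 without passing.

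The week 0 arrays carried most of this trend. With weeks 3 to 12 only, an alternative chosen after seeing the data, 1 member passed, Snord118 stood at 0.24, Snora73a at 0.56 and Snora33 at -0.19. Left out alone, array 2 of week 0, which is 1 of the 3 high in Lor, or array 1 of week 12 of untreated A/J left fewer calls. This held among the members and among all tested genes. The median trend of the members was 0.34 in either fit, against 0.07 over all tested genes. The strain difference was also present without week 0. In weeks 3 to 12 of untreated lungs 29 members were higher and 2 lower in A/J, Snora23 and Snord14e (-0.57). The share of all tested genes called in those weeks is not given here. The median difference of the tested members was 0.25 at week 0, 0.33 at week 3, 0.30 at week 6, 0.80 at week 9 and 0.41 at week 12. Over all tested genes the weekly median lay between -0.09 (week 0) and -0.002 (week 12). The share of rises among all genes called in the A/J trend was 76.9%, and 40.6% on the deposited scale without normalization, under which 12 members rose.

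In untreated C3H no member passed the trend at the adjusted threshold in the limma fit, where 0.863% of tested genes did. At an unadjusted p under 0.05 there were 2, Snord14e at 1.01 ± 0.38 and Snord95 at 0.32 ± 0.10. All tested genes were not counted at that threshold. Snord118 there read 6.76 and 6.59 at week 0 and 6.60 and 6.72 at week 12, a trend of -0.40 ± 0.36. The difference between the strains' trends passed for 6 members, where 1.32% of tested genes were called, and all were more positive in A/J. They were Snord118 at 2.75 ± 0.51 (adjusted p = 0.00917), Snord87 at 1.36 ± 0.32, Snora73a at 1.33 ± 0.26, Snord15b at 1.11 ± 0.22, Snora73b at 1.10 ± 0.25 and Snora21, of the ribosomal protein gene Rpl23, at 0.66 ± 0.15. Snord118 and Snord87 had passed the level filter through A/J, and without the filter 6 of 54 members passed, all more positive in A/J. Snord14e, at -1.65 ± 0.54, did not pass (adjusted p = 0.117). Without the 3 arrays high in Lor, which leaves no week 6 and 1 array of week 0 in the A/J trend, calls were lost. With weeks 3 to 12 only, 0 members passed. Of single arrays of untreated A/J, week 0 array 2, week 12 array 1 and week 9 arrays 1 and 2 moved the count of 6 by more than 1.5 times. So did untreated C3H week 0 array 2, week 3 array 1 and week 12 arrays 1 and 2. The share of all tested genes called moved the same way in each. The members' median difference lay between 0.29 and 0.45 in these fits, against 0.37 with all arrays.

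The 11 RNA genes below the level filter were mostly short, 8 of 11 under 70 bases in RefSeq, against 10 of the 43 tested. Without the filter, the dim Snord15a, in Rps3 with Snord15b, was higher in untreated A/J by 0.72 ± 0.07, and Snora2b and Snord58b were lower (-0.22 ± 0.07 and -0.60 ± 0.12). Of the 6 members with another probe set, Snord118, Scarna17 and Snora30 had identical values on 36 of 36 arrays in both, so that these are not independent readings. Another 41 probe sets carried several symbols with a Snor or Scarna name and were not members. Of the 12 of these outside the Snord116 cluster that passed the filter, 3 were higher in untreated A/J and 5 lower. Of all probe sets tested 22.3% were higher and 30.3% lower. Among the 12 were the probe set of Snora28 and its host Eif5 at -0.59 (adjusted p = 6.34e-07 by limma) and the one of Snora24 and Snhg8 at 0.38. The 5 lower included a pair for Snord14c, Snord14d and Hspa8 with near-identical values (-0.486 and -0.487). Such probe sets may measure the host as well as the small RNA. Whether the probe sets of members, 53 of 54 of which lie inside another gene, also measure the host was not tested. A further 24 of the 41 named the imprinted Snord116 cluster, whose RNA guides are repeated in tandem, and these 24 were all higher in untreated A/J (0.93 to 0.97, where 22.3% of 26667 probe sets were called higher) and 0 with NNK (median 0.49). They held only 7 distinct sets of values and 18 of them were the same. Over weeks 0 to 12 of untreated A/J all 24 fell, by a trend of -2.25 to -2.11 (adjusted p = 0.00199 to 0.00293), where 6.32% of probe sets fell, and in untreated C3H none passed (-0.89 to -0.80).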

How the data were processed

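Labelled total RNA of mouse lung was read on 36 Affymetrix arrays. The values that the authors deposited are linear intensities of probe sets; per the submitters' processing notes, the tools were PLIER and Affymetrix Expression Console. Their versions, settings and build are not given in the sources used here. The array medians lay between 285 and 347. No read depth exists for arrays, and their number limits the precision.

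Intensities were turned to log2(intensity + 16) and quantile-normalized. Of 35556 probe sets 21789 had 1 symbol, 1621 several and 12146 none in the probe table, and the brightest probe set was kept per gene. Limma 3.58.1 in R 4.3.3 fitted a mean for each of 18 groups (18 residual degrees of freedom) with moderated variances. Contrasts were means over weeks of A/J minus C3H, of NNK minus untreated, their difference between strains, and linear trends over weeks 0 to 12. The SE is that of the fit and n is 2 arrays per group. The script was tested on simulated data. All 55 symbols matched RefSeq; the host is the containing gene, with Snhg genes and Gas5 preferred where 2 span a member. Figures were drawn with matplotlib 3.10.9 in Python 3.11.15.

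Named are the 10 members with the highest mean, the 5 with the largest SD, per contrast up to 10 passing members in each direction and the 3 with the smallest p where fewer than 3 passed. Snord95, Snora75 and other members of shared hosts, Snora70, Snord42b, Snord55, Coil, Wrap53, Rnu3a, Terc, Snora20, Snora2b, Snord58b, Snord15a, Krt1, Krt5 and the probe sets of several symbols were named after their values were seen. The members, lists, tests and alternatives were chosen with earlier results of these data known. Of the marker lists, neuron markers (3 of 6 tested) had 2 lower and 0 higher in untreated A/J, and red blood cell markers (2 tested) 0 of either. Lung markers had 4 higher and 2 lower, skin markers 4 higher and noncoding hosts 3 of 6 higher. Of all tested genes 19.8% were higher and 36.3% lower. Alternatives were the scaling, pseudocount, filter, variance model, array weights, array number as a block, each strain alone, probe set choice and single arrays left out. Leaving out the arrays with Lor above 10, weeks 3 to 12 only, and each probe set as its own row were chosen after seeing the data.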

Additional observations from a re-analysis of the deposited data

Results flagged for a closer look

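In 144 sets of 8 or 10 arrays (35 named genes and the members' median deviation, in each strain and treatment), 5 values stood apart from the rest of their set by Dixon's criterion, and chance marks about 1 in 20 sets. Snord47 read 8.83 in array 1 of week 6 of untreated A/J, 1 of the arrays high in Lor and Krt1, where the other 9 lay between 9.48 and 9.90. Snord53 read 9.44 in array 2 of week 3 of NNK-treated A/J, where the others lay between 10.77 and 11.31. Scarna13 read 8.74 in array 1 of week 0 of untreated C3H, where the others lay between 9.11 and 9.50. In array 1 of week 3 of NNK-treated C3H, Snora33 read 6.86 and Snora21 read 8.53, where the others lay between 7.25 and 7.50 and between 8.82 and 9.02.

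Changes that differed between the strains by a limma interaction term were 1 for NNK and 6 for the weeks. The NNK change of Snora69 was more positive in A/J by 0.71 (adjusted p = 0.049, 0.51 in A/J and -0.20 in C3H). The trend over the weeks in untreated lungs was more positive in A/J for Snord118 by 2.75 (adjusted p = 0.00917), Snord87 by 1.36 (0.0319), Snora73a by 1.33 (0.0121), Snord15b by 1.11 (0.013), Snora73b by 1.10 (0.0302) and Snora21 by 0.66 (0.0269).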

How the results depend on the processing

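Of 765 values of 74 gene results under the alternatives, 712 kept direction and side of the threshold, 47 lost and 5 gained the call, and 1 reversed, Snora33 in the week trend in untreated A/J (-0.19 with weeks 3 to 12 only). With single arrays left out, 2559 of 2664 values kept both and 0 reversed. The week trend in untreated A/J had 12 calls with no normalization between arrays, 13 with a filter at the 50th percentile, 12 with array weights and 1 with weeks 3 to 12 only. The difference of the NNK change between strains had 0 calls without the arrays with high Lor, with array weights, with trended robust variances, with a pseudocount of 1, and when the filter was either dropped or set at the 50th percentile. The strain difference in NNK-treated lungs had 20 calls with a filter at the 50th percentile, which leaves fewer members to test. The NNK change in A/J had 1 call with own strain only and 0 without the arrays with high Lor, and its share of rises among all called genes was 86.1% with arrays centred on their medians against 74.1%. For the difference of the week trend between strains that share was 61.4% with no normalization against 83.2%. The week trend in untreated C3H had 1 call with array weights and 1 with own strain only. The difference of the week trend between strains had 1 call without the arrays with high Lor and 0 with weeks 3 to 12 only. Other causes of these shifts were not tested.

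With single arrays left out, calls ranged from 30 to 36 for the strain difference in untreated lungs, 32 to 36 for that in NNK-treated lungs, 2 to 5 for the NNK change in A/J (5 without array 2 of week 3 of untreated A/J), 0 to 1 for the difference of the NNK change between strains, 12 to 21 for the week trend in untreated A/J and 1 to 10 for the difference of the week trend between strains. In fits where such a count moved, the share of all tested genes called often moved as well. Array numbers showed no steady pairing of samples (r from -0.38 to 0.42 over 153 pairs of groups, median 0.02, 47 above 0.1). The labels do not say whether arrays of 1 number were handled together. The replicate block left the counts at 31, 34, 3, 0, 1, 20, 0 and 6. The members' median SD stayed between 0.19 and 0.20 under the scalings tried and between 0.17 and 0.20 with single arrays left out. Dim members limit what can be said of C3H levels.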
